A study of Homo sapiens with 18 samples.

Results

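The J-domain cochaperone family was examined as every gene symbol that starts with DNAJ, leaving out DNAJB9, DNAJB11, DNAJC3 and DNAJC10, whose products work inside the endoplasmic reticulum. Of 23250 symbols in the expression tables, 49 start with DNAJ and 45 were kept. These are 4 symbols of class A, 11 of class B, 26 of class C and 4 other transcripts: the pseudogene DNAJA1P5, the antisense RNAs DNAJB8-AS1 and DNAJC27-AS1, and the readthrough DNAJC25-GNG10.

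J-domain proteins are the partners that set HSP70 chaperones to work. The J domain, which carries a conserved histidine-proline-aspartate motif, stimulates ATP hydrolysis by HSP70 so that HSP70 closes on its client protein, and nucleotide exchange factors then open it again. Class A proteins resemble bacterial DnaJ and have a zinc-binding region, class B proteins share the J domain and a glycine-rich linker, and class C proteins share the J domain alone and are tied to particular places and tasks in the cell. Some members, DNAJB1 best known among them, are classical targets of the heat shock factor HSF1.

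RNA-seq libraries came from 3 established human lymphoma B cell lines, SUDHL6, SUDHL4 and Farage. In each line there were 3 libraries of cells given the BCL6 inhibitor 79-6.1085, a compound known by its code, at 10 µM for 12 h, and 3 libraries of cells given the vehicle DMSO for 12 h. BCL6 is a transcriptional repressor of germinal centre B cells. The comparison asks which transcripts change with the compound, and effects through BCL6 and other effects of the compound cannot be told apart here. Each line is a single cultured cell line, all members were measured in bulk RNA, and nothing in the labels tells whether the 3 libraries of a group were grown separately: the p-values cover only the spread among libraries, which may be technical. In bulk RNA, fewer cells with a transcript and less of it per cell cannot be told apart.

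Values are CPM (read counts scaled to library size) as the authors deposited them. Listed genes held 6289956 to 17347370 reads in treated and 7359083 to 20599310 reads in DMSO libraries of SUDHL6, where replicate 3 was the shallowest of each group. The ranges were 16867228 to 22547845 reads in treated and 22097349 to 25492726 reads in DMSO libraries of SUDHL4, and 20222306 to 23347221 reads in treated and 21826367 to 24097618 reads in DMSO libraries of Farage. The 5 B cell markers used (MS4A1, CD79A, CD79B, CD22 and PAX5) had at least 1 CPM in every library, with a sum of 1939 to 4258 CPM in treated and 3300.1 to 6513 CPM in DMSO libraries. All 5 were called lower in the mean of the lines, by -0.33 (CD22, a call lost with another scaling of the libraries) to -2.24 (PAX5) on the log2 scale, and their part in the results below was not tested. Summed T cell, myeloid and epithelial markers stayed at or below 2.88 CPM, whereas 1 fibroblast marker, DCN, made up most of a fibroblast sum of 17.4 to 20.5 CPM in treated and 59.0 to 66.6 CPM in DMSO libraries of SUDHL4.

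Fold changes are log2 values of treated over DMSO on the log2(CPM + 1) scale, which understates changes of low genes. Each is given with the standard error (SE) of 1 limma model over the 18 libraries. Calls were made at a Benjamini-Hochberg adjusted p below 0.05 over the 12769 genes that had at least 1 CPM in at least 3 libraries. By that filter 34 members were tested: 3 of class A, 7 of class B and 24 of class C. The 11 others were the 4 other transcripts and DNAJA4, DNAJB3, DNAJB7, DNAJB8, DNAJB13, DNAJC22 and DNAJC5G. DNAJB3 and DNAJC25-GNG10 were listed at 0 in every library, DNAJB13 reached 1.33 CPM, and the remaining untested members reached at most 0.527 CPM.

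Before the values, the promoters of the 4 members that rose furthest among those higher in every line are shown, because the heat shock element is the best known control site of this family. The element is built of inverted GAA units. It was searched on both strands as the triple GAANNTTCNNGAA and as the overlapping pairs GAANNTTC and TTCNNGAA. The search covered 300 bases, from 250 before to 50 after the first listed RefSeq start of each gene symbol (GRCh38.p14). The sequences below run 5′ to 3′ along the gene, and capitals mark letters of a match.
DNAJA1: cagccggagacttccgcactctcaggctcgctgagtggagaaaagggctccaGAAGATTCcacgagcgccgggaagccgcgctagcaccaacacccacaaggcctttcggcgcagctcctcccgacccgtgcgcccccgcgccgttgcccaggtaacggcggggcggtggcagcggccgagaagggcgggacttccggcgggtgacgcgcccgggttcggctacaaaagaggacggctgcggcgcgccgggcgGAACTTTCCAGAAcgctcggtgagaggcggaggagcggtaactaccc
DNAJB1: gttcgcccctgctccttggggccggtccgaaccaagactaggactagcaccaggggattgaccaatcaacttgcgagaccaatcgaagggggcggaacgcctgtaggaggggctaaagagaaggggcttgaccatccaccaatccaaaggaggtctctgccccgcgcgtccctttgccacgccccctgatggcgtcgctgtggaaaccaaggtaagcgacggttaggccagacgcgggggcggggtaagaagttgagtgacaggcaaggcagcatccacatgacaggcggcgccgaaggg
DNAJB4: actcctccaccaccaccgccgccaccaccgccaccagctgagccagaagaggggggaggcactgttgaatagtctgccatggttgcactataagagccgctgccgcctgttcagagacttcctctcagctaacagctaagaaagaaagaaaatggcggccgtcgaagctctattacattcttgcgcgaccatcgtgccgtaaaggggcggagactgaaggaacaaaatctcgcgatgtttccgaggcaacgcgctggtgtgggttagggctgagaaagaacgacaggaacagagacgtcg
DNAJB6: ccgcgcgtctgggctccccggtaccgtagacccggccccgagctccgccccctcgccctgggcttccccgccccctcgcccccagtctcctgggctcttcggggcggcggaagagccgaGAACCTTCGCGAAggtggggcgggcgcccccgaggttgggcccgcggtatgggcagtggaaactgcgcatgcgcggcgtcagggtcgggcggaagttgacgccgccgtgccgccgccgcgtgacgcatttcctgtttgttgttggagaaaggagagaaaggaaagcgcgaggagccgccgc

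These windows lie at chr9:33025023-33025322 (plus strand) for DNAJA1, chr19:14529222-14529521 (minus strand) for DNAJB1, chr1:77978925-77979224 (plus strand) for DNAJB4 and chr7:157336754-157337053 (plus strand) for DNAJB6. The triple was found in DNAJA1, just after the start, and in DNAJB6, before it, and DNAJA1 held a further pair upstream. It was present in 0.487% of all 27305 promoters in the table, and either pair in 13.7%. Of 39 members with a promoter in the table, 2 held the triple and 4 held a pair, the other 2 being DNAJB7 and DNAJC15. The windows of DNAJB1 and DNAJB4 held neither, which says only that these letters are not in these 300 bases. Any other start of these genes, from which the transcripts measured here may come, was not searched.

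Across the family the response ran in both directions. Averaged over the lines, 13 of the 34 tested members were higher and 15 lower in treated cells, against a background of 30.1% of all genes tested higher and 53.8% lower (82.4% of the members and 83.9% of all genes called). The median member changed by 0.05 and the median gene by -0.24. Most genes were called, so a call alone is no mark of this family, and the split depended on scaling: with median-of-ratios scaling of the libraries, which brings the median of all genes to -0.05, 20 members were higher and 12 lower, and 47.1% of all calls were higher against 35.8% on CPM as deposited. The class B genes moved most, with 6 of 7 higher, 1 lower and a median of 1.16. In class A 2 of 3 were higher and 1 lower, and in class C 5 of 24 were higher and 13 lower with a median of -0.27.

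Line by line, SUDHL6 had 13 members higher and 12 lower (background 26.8% and 41.3% of genes, 68.1% together), SUDHL4 had 9 and 15 (24.3% and 46.2%, 70.5% together), and Farage had 12 and 14 (25.4% and 46.5%, 71.9% together). Members whose treated values all lay above, or all below, the DMSO values were 14 and 10 in SUDHL6 (24.4% and 36.5% of genes), 10 and 15 in SUDHL4 (28.9% and 51.6%) and 14 and 16 in Farage (30.6% and 53.2%). With median-of-ratios scaling the members called higher and lower were 18 and 9 in SUDHL6, 12 and 10 in SUDHL4, and 15 and 9 in Farage. Calls over all genes moved as well. In Farage 4285 genes were higher and 4752 lower with that scaling, against 3246 and 5939 on CPM as deposited. Members higher in all 3 lines were DNAJA1, DNAJB1, DNAJB4, DNAJB6, DNAJB12, DNAJB14 and DNAJC7, 20.6% of those tested against 14.7% of all genes. All 7 were also called higher in every line with median-of-ratios scaling, with edgeR and with DESeq2 on recovered reads. Lower in all 3 lines were 11 members, 32.4% against 28.3% of all genes, of which DNAJB5, DNAJC1, DNAJC12, DNAJC15, DNAJC19 and DNAJC30 were lower in every line by those 3 methods as well. DNAJC27, DNAJC5B, DNAJC6 and DNAJC8 were called in no line.

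**Figure D1:**
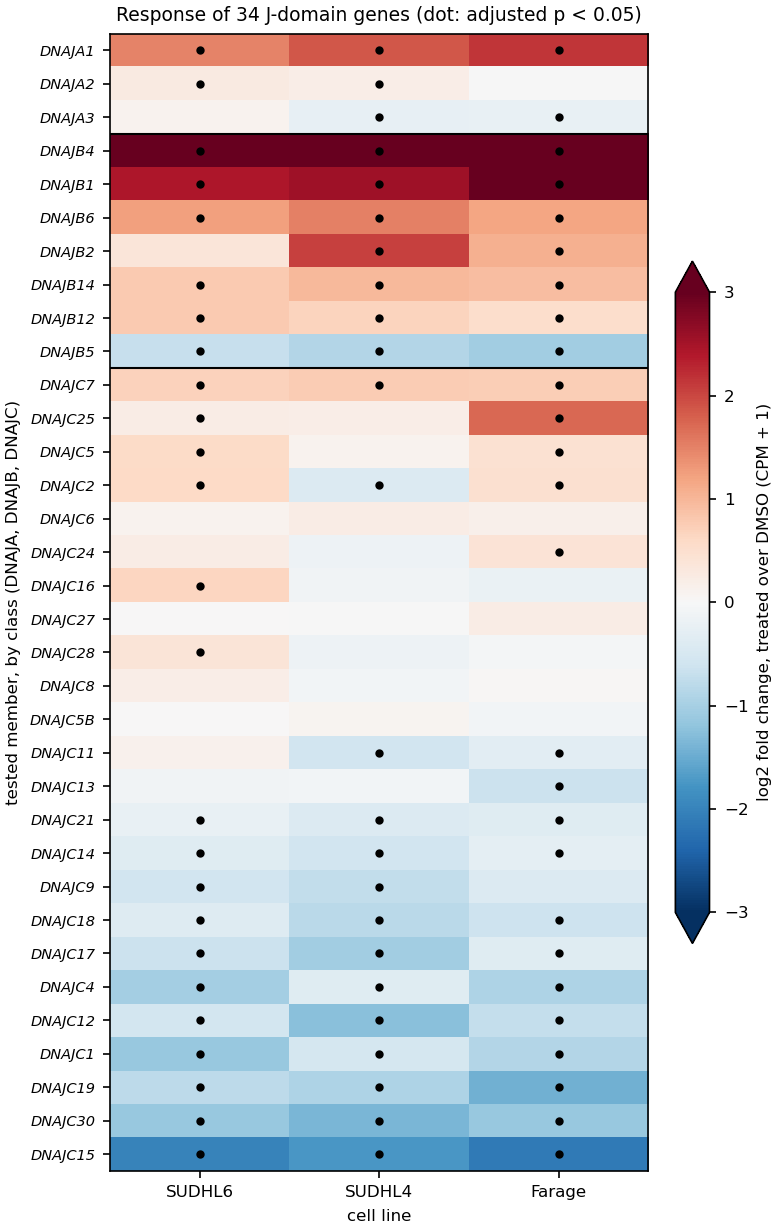
Log2 fold change, treated over DMSO, of the 34 tested members (down the page, grouped as class A, B and C and ordered by their mean change) in SUDHL6, SUDHL4 and Farage (across). Red is higher and blue lower in treated cells, colours saturate at 3 in either direction, and a dot marks an adjusted p below 0.05; the 6 red rows of class B stand above the mostly pale or blue rows of class C.

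Of 8 tested cytosolic and nuclear cochaperones of HSP70, 7 were higher and 1, DNAJB5, lower on averaging the lines, with a median change of 1.23, where 30.1% of all genes were higher and 53.8% lower. By line, 6 were higher in SUDHL6 (26.8% of all genes), 7 in SUDHL4 (24.3%) and 6 in Farage (25.4%), and DNAJB5 was lower in each. DNAJB4, a class B cochaperone of cytosolic HSP70 closely related to DNAJB1, changed most. It had 250.5, 123 and 175 CPM in treated SUDHL6 cells, against 6.20, 6.72 and 5.997 CPM in DMSO cells. In SUDHL4 it had 298, 324 and 242 CPM in treated cells, against 11.8, 10.4 and 45.4 CPM in DMSO cells. In Farage it had 332, 351 and 299.6 CPM in treated cells, against 6.99, 7.77 and 7.70 CPM in DMSO cells. Every treated library was far above every DMSO library of its line, and 1 DMSO library of SUDHL4, replicate 3, stood above its 2 partners. The log2 fold change was 4.59 ± 0.37 (SE) in SUDHL6, 3.92 ± 0.37 in SUDHL4 and 5.27 ± 0.37 in Farage (n = 3 against 3 each, limma adjusted p = 2.49e-08, 8.39e-08 and 3.46e-09).

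DNAJB1, the main heat-inducible HSP40 of the cytosol and nucleus, had 586, 417 and 451 CPM in treated SUDHL6 cells, against 87.1, 87.9 and 89.9 CPM in DMSO cells. It had 518, 616 and 458 CPM in treated SUDHL4 cells, against 76.3, 73.8 and 129.9 CPM in DMSO cells. Farage had 794, 817 and 875 CPM in treated cells, against 82.1, 89.8 and 87.0 CPM in DMSO cells. DMSO means were alike in the 3 lines, with DMSO contrasts between lines of at most 0.06 in size, and treated levels were highest in Farage. The SUDHL4 DMSO mean of 93.3 CPM holds the high replicate 3. Replicates 1 and 2 averaged 75.0 CPM, against DMSO means of 88.3 CPM in SUDHL6 and 86.3 CPM in Farage. The log2 fold changes were 2.43 ± 0.17 in SUDHL6, 2.53 ± 0.17 in SUDHL4 and 3.25 ± 0.17 in Farage (limma adjusted p = 7.17e-09, 2.23e-09 and 1.99e-10).

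DNAJA1, an abundant class A cochaperone that folds cytosolic clients and is farnesylated, had 1117, 834 and 1088 CPM in treated SUDHL6 cells, against 332, 341 and 403 CPM in DMSO cells. Treated SUDHL4 cells had 685, 782 and 584 CPM, against 176, 159 and 235 CPM in DMSO cells. Treated Farage cells had 1194, 1272 and 1225 CPM, against 278, 285 and 275 CPM in DMSO cells. No treated value overlapped a DMSO value in any line. The log2 fold changes were 1.49, 1.85 and 2.13 in SUDHL6, SUDHL4 and Farage (SE 0.14 each, limma adjusted p = 1.33e-07, 8.11e-09 and 1.88e-09).

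DNAJB6, which keeps aggregation-prone proteins such as polyglutamine peptides soluble, averaged 189.5 ± 9.76 CPM in treated and 81.4 ± 12.7 CPM in DMSO SUDHL6 cells (SD, n = 3 each). It averaged 186 ± 20.5 CPM in treated and 65.0 ± 9.85 CPM in DMSO SUDHL4 cells, and 317 ± 2.32 CPM in treated and 138 ± 6.71 CPM in DMSO Farage cells. Its rise was even across lines, 1.22, 1.50 and 1.19 on the log2 scale, and no pairwise difference of response passed the test on all libraries, although SUDHL4 minus Farage was 0.43 and called without SUDHL4 DMSO replicate 3, and SUDHL6 minus SUDHL4 was -0.41 and called without SUDHL6 DMSO replicate 1. DNAJC7, a class C protein with tetratricopeptide repeats that binds both HSP70 and HSP90, rose by 0.68, 0.76 and 0.73 in SUDHL6, SUDHL4 and Farage, with SE 0.07 in each. Treated libraries had 164 to 179, 113 to 133 and 185 to 196 CPM of it in these lines, against 104 to 109, 67.4 to 76.3 and 112 to 116 CPM in DMSO libraries.

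DNAJB2, a class B protein with ubiquitin-interacting motifs that passes clients to the proteasome, varied by line. Treated SUDHL4 cells had 323, 363 and 292 CPM, against 65.8, 72.2 and 98.0 CPM in DMSO cells, and treated Farage cells had 142, 148 and 166 CPM, against 72.5, 69.6 and 73.8 CPM in DMSO cells. Treated SUDHL6 cells had 59.7, 113 and 125 CPM, against 71.6, 84.5 and 63.7 CPM in DMSO cells. Here the groups overlapped, since treated replicate 1 lay below all 3 DMSO values. The change was 2.05 ± 0.21 in SUDHL4 and 1.07 ± 0.21 in Farage (limma adjusted p = 1.91e-07 and 0.00022) and 0.37 ± 0.21 in SUDHL6 (adjusted p = 0.127). Without that treated replicate the SUDHL6 value was 0.69 and was called, and it was 0.54 and called with median-of-ratios scaling.

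**Figure D2:**
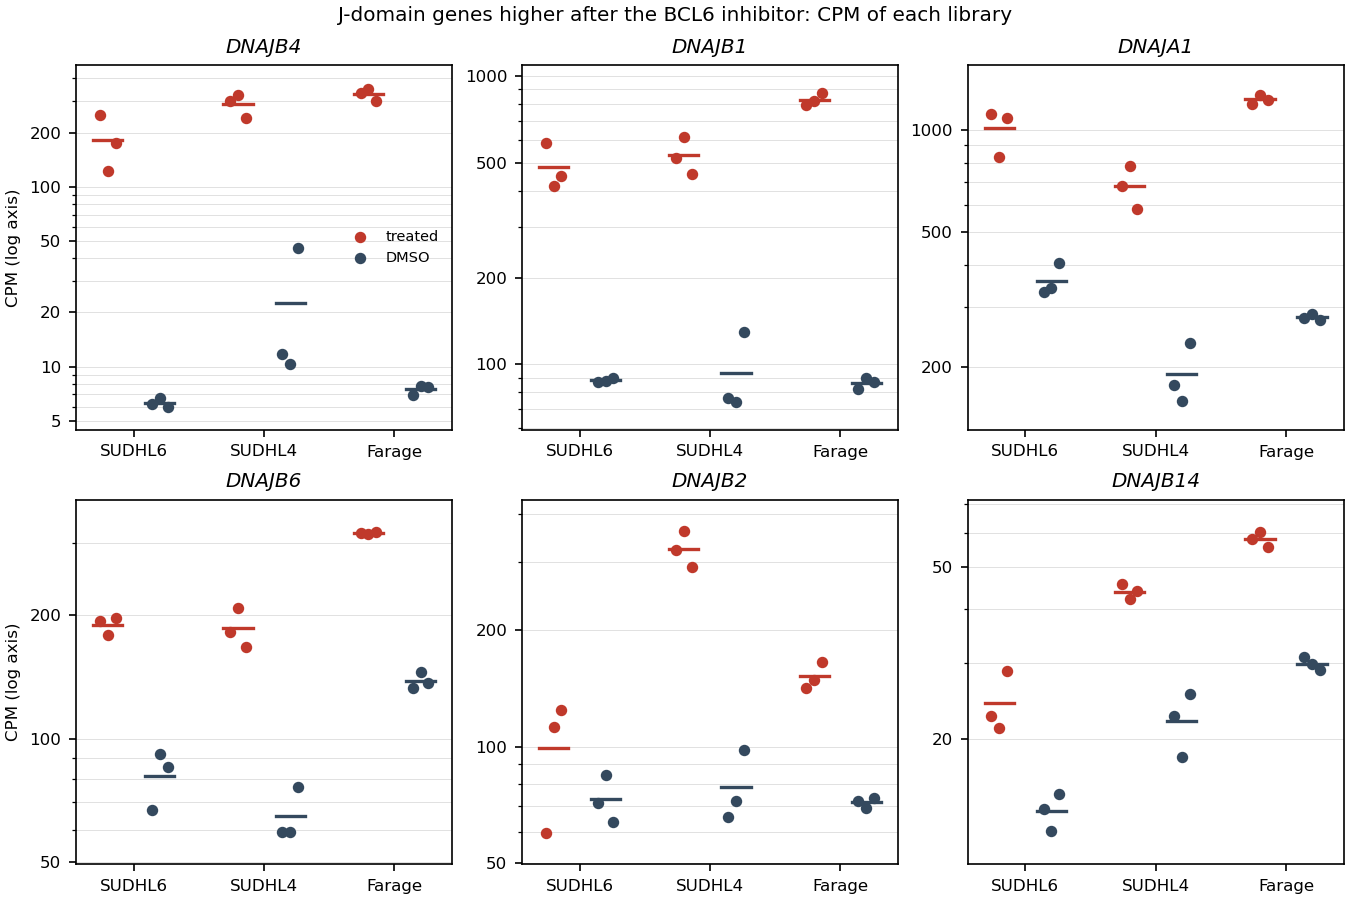
CPM on a log axis of DNAJB4, DNAJB1, DNAJA1, DNAJB6, DNAJB2 and DNAJB14 in each library, with treated libraries (red) left of DMSO libraries (dark grey-blue) in each line; points are libraries and bars are means of n = 3. Treated and DMSO points are apart in every panel and line except DNAJB2 in SUDHL6, where 1 treated library lies at 59.7 CPM, and DMSO replicate 3 of SUDHL4 is the highest DMSO point of that line in all 6 panels.

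DNAJA2, the other common cytosolic class A cochaperone, barely moved. It averaged 103 ± 0.34 CPM in treated and 85.8 ± 3.52 CPM in DMSO SUDHL6 cells, 110.5 ± 7.50 and 96.7 ± 3.23 CPM in treated and DMSO SUDHL4 cells, and 198 ± 15.3 and 200.5 ± 8.56 CPM in treated and DMSO Farage cells. Its log2 change was 0.26 and 0.19 in SUDHL6 and SUDHL4, both called (the second not without SUDHL4 DMSO replicate 2 or 3 or treated replicate 2), and -0.02 in Farage, where it turned to 0.22 with median-of-ratios scaling. DNAJA1 therefore took up more of the class A sum in treated cells: 79.2%, 78.6% and 82.2% in treated SUDHL6, SUDHL4 and Farage cells, against 60.4%, 50.2% and 49.9% in DMSO cells. DNAJB5, a class B relative of DNAJB1 and DNAJB4, went the other way from both. It averaged 10.5 ± 1.36 CPM in treated and 17.6 ± 2.61 CPM in DMSO SUDHL6 cells, 3.28 ± 0.25 and 6.89 ± 0.545 CPM in treated and DMSO SUDHL4 cells, and 18.5 ± 2.95 and 38.9 ± 1.83 CPM in treated and DMSO Farage cells, with log2 changes of -0.69, -0.88 and -1.05 (SE 0.13 each).

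Set against exon length, the order of the members differed between treated and DMSO cells. The length used joins the exons of all basic coding transcripts of a gene in GENCODE v29. It can exceed that of the transcript expressed, so ranks between genes are approximate. DNAJA1 ranked 1 of the 34 tested members in CPM per kilobase in treated cells of all 3 lines. In DMSO cells of SUDHL6, SUDHL4 and Farage it ranked 1, 1 and 2. DNAJB4 ranked 5, 4 and 4 in treated cells, against 28, 19 and 30 in DMSO cells. DNAJB1 ranked 2 in treated cells of each line, against 5, 3 and 7 in DMSO cells. DNAJB4 stood at 61.1, 96.3 and 109.6 CPM per kilobase in treated cells, against 2.11, 7.53 and 2.51 in DMSO cells of SUDHL6, SUDHL4 and Farage. Its SUDHL4 DMSO value (SD 6.63) and rank hold DMSO replicate 3, at 45.4 CPM against a mean of 11.1 CPM in replicates 1 and 2.

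DMSO replicate 3 of SUDHL4 stood towards the treated libraries for 8 of the 9 members called higher in that line, by 7.84% (DNAJB12) to 21.3% (DNAJB14) of the way to the treated mean, and away from them for DNAJA2. It was 4.10 times the mean of DMSO replicates 1 and 2 for DNAJB4, 1.73 times for DNAJB1, 1.42 times for DNAJB2, 1.40 times for DNAJA1 and 1.29 times for DNAJB6. Most of the 15 members called lower in SUDHL4 also stood towards the treated libraries, by 10.4% (DNAJB5) to 38.9% (DNAJC18) of the way. Among them were DNAJC30 (33.0%), DNAJC17 (25.9%) and DNAJC15 (14.5%). The others, DNAJC1, DNAJC2, DNAJC9 and DNAJC19, stood away from the treated libraries. Without this library the SUDHL4 change of DNAJB4 was 4.57 in place of 3.92, and that of DNAJB1 was 2.80 in place of 2.53. The partner genes HSPA1B (13.3, 11.6 and 48.1 CPM) and BAG3 (0.730, 0.760 and 5.06 CPM) were also highest in DMSO replicate 3 among the DMSO libraries of SUDHL4.

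Mitochondrial members were lower or not called in the mean of the lines: 0 of 7 rose and 6 fell, with a median of -0.77, where 53.8% of all genes were lower. By line, 1 was higher and 4 lower in SUDHL6 (26.8% and 41.3% of all genes). In SUDHL4 (24.3% and 46.2% of all genes) and in Farage (25.4% and 46.5%), 0 were higher and 6 lower. DNAJA3 turned to 0.12 and DNAJC11 lost its call at -0.02 with median-of-ratios scaling, which leaves DNAJC15, DNAJC30, DNAJC19 and DNAJC4 as the members lower by every method. DNAJC15, a J protein of the inner mitochondrial membrane tied to protein import and to respiratory chain activity, fell furthest of the whole family. Treated SUDHL6 cells had 1.68, 2.40 and 3.14 CPM, against 11.4, 9.74 and 16.9 CPM in DMSO cells. Treated SUDHL4 cells had 28.9, 30.9 and 23.2 CPM, against 99.8, 96.4 and 87.9 CPM in DMSO cells. Treated Farage cells had 9.15, 8.96 and 10.3 CPM, against 39.5, 49.3 and 44.8 CPM in DMSO cells. The groups were separate in each line although the lines started from levels far apart, and the log2 changes were -2.0, -1.75 and -2.12 (SE 0.18 each, limma adjusted p = 7.31e-08, 2.11e-07 and 2.63e-08).

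DNAJC19, the human counterpart of the yeast import motor subunit Pam18, had 6.15, 8.08 and 9.78 CPM in treated SUDHL6 cells, against 14.1, 10.7 and 19.0 CPM in DMSO cells. It had 12.9, 11.4 and 14.2 CPM in treated SUDHL4 cells, against 26.2, 23.7 and 25.9 CPM in DMSO cells, and 3.84, 3.13 and 3.65 CPM in treated Farage cells, against 10.5, 12.2 and 10.99 CPM in DMSO cells. Treated values were lower than all DMSO values in each line. The log2 changes were -0.78, -0.93 and -1.43 (SE 0.17 each), and in a fit of SUDHL6 alone the first missed the threshold (adjusted p = 0.0546).

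DNAJC30, which works on respiratory complex I and its repair, averaged 5.09 ± 2.41 CPM in treated and 12.1 ± 3.70 CPM in DMSO SUDHL6 cells, where the library spread was wide. It averaged 2.70 ± 0.33 and 8.595 ± 1.35 CPM in treated and DMSO SUDHL4 cells, and 3.65 ± 0.30 and 9.19 ± 0.95 CPM in treated and DMSO Farage cells. Its changes of -1.14, -1.37 and -1.13 (SE 0.23 each) were close to one another, and no difference between lines passed the test. DNAJC4, a little studied mitochondrial member, fell by 1.03 in SUDHL6 and by 0.92 in Farage on the log2 scale, and its -0.35 in SUDHL4 lost the call with median-of-ratios scaling (-0.07), without DMSO replicate 1 (-0.31) or without treated replicate 1 (-0.32).

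DNAJA3, the class A cochaperone of mitochondrial HSP70, had 156, 165 and 157 CPM in treated and 152, 152 and 139.8 CPM in DMSO SUDHL6 cells. In SUDHL4 it had 74.5, 71.1 and 77.2 CPM in treated cells, against 90.9, 90.9 and 84.6 CPM in DMSO cells, and in Farage 63.0, 67.5 and 76.3 CPM in treated cells, against 76.8, 83.9 and 79.998 CPM in DMSO cells. The calls of -0.26 in SUDHL4 and -0.22 in Farage were lost with median-of-ratios scaling, at 0.04 and 0.02, so the direction of DNAJA3 rests on the scaling. The Farage call was also lost without DMSO replicate 2 (-0.19) or treated replicate 1 (-0.16). DNAJC11, which associates with the complex that shapes mitochondrial cristae, changed by 0.12 in SUDHL6, by -0.57 in SUDHL4 and by -0.31 in Farage. DNAJC28, listed as mitochondrial and below 1 CPM in SUDHL4 and Farage, averaged 4.66 ± 0.60 CPM in treated and 3.36 ± 0.73 CPM in DMSO SUDHL6 cells, a call of 0.38 between overlapping groups that was lost with a pseudocount of 0.25 and without DMSO or treated replicate 2.

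**Figure D3:**
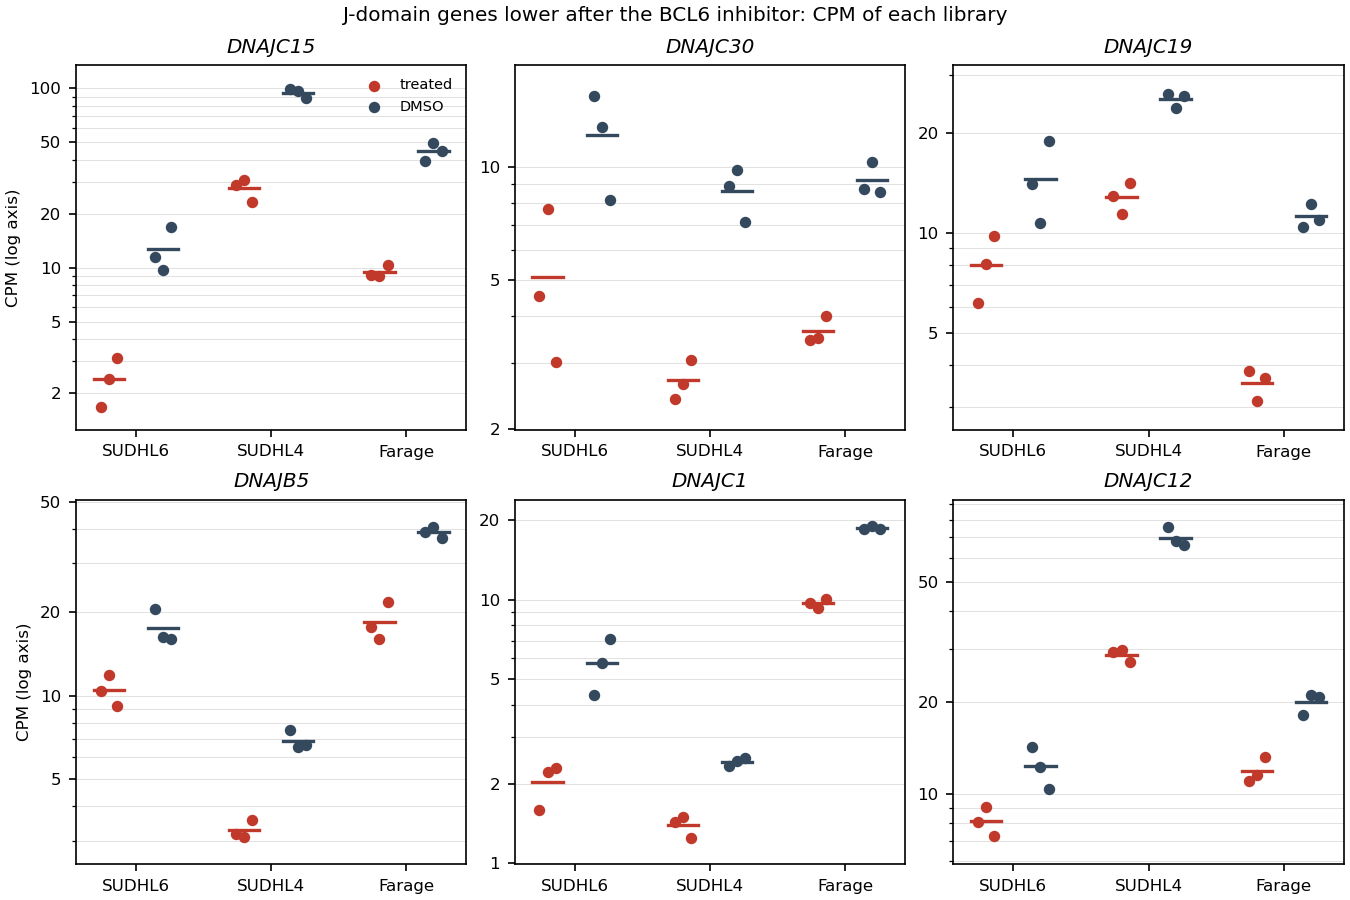
CPM on a log axis of DNAJC15, DNAJC30, DNAJC19, DNAJB5, DNAJC1 and DNAJC12 in each library, with treated libraries (red) left of DMSO libraries (dark grey-blue) in each line; points are libraries and bars are means of n = 3. In every panel and line the treated points lie below the DMSO points, and the lines differ in level, as for DNAJC15 with DMSO means of 12.7 CPM in SUDHL6, 94.7 CPM in SUDHL4 and 44.5 CPM in Farage.

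Members of the endoplasmic reticulum and secretory membranes split evenly, with 3 of 7 higher, 3 lower and DNAJC16 not called in the mean of the lines (30.1% and 53.8% of all genes were higher and lower). The related pair DNAJB12 and DNAJB14, membrane proteins whose J domain faces the cytosol, rose in every line. DNAJB14 averaged 24.2 ± 4.04 CPM in treated and 13.6 ± 1.35 CPM in DMSO SUDHL6 cells, 43.9 ± 1.76 and 22.04 ± 3.65 CPM in treated and DMSO SUDHL4 cells, and 58.1 ± 2.35 and 29.8 ± 1.03 CPM in treated and DMSO Farage cells, with changes of 0.78, 0.97 and 0.94 (SE 0.12 each). DNAJB12 rose by 0.77, 0.66 and 0.53 in the same lines (SE 0.07 each), to 84.6 to 91.8, 46.2 to 49.8 and 51.7 to 59.6 CPM in treated libraries, against 47.0 to 54.1, 28.3 to 30.6 and 37.1 to 38.6 CPM in DMSO libraries.

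DNAJC1, a membrane protein whose J domain faces the lumen, averaged 2.04 ± 0.39 CPM in treated and 5.73 ± 1.36 CPM in DMSO SUDHL6 cells. It averaged 1.39 ± 0.13 and 2.43 ± 0.09 CPM in treated and DMSO SUDHL4 cells, and 9.71 ± 0.38 and 18.7 ± 0.30 CPM in treated and DMSO Farage cells. It was lower in each line, by -1.14, -0.52 and -0.88 on the log2 scale (SE 0.13 each). DNAJC14, a membrane protein known from the trafficking of dopamine receptors, and DNAJC18 were called lower in all 3 lines, by -0.30 to -0.57 and by -0.38 to -0.80. The Farage call of DNAJC14 (-0.06) and the SUDHL6 call of DNAJC18 (-0.22) were lost with median-of-ratios scaling. DNAJC18 also lost its SUDHL6 call without DMSO replicate 1.

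Of 5 tested vesicle and endosome members, 1 was higher and 1 lower on averaging the lines, against 30.1% and 53.8% of all genes. DNAJC5, the cysteine string protein of secretory vesicles, rose in SUDHL6 (167 ± 14.8 CPM in treated and 111 ± 7.86 CPM in DMSO cells, log2 change 0.59) and in Farage (158 ± 11.2 and 115 ± 1.64 CPM in treated and DMSO cells, 0.45). Its SUDHL4 change of 0.10 was not called on CPM as deposited and was 0.40 and called with median-of-ratios scaling. DNAJC13, an endosomal protein that acts in receptor recycling, fell by 0.64 in Farage, where treated libraries had 80.03 to 85.9 CPM, against 122 to 133 CPM in DMSO libraries. Its groups overlapped in the other lines, and with median-of-ratios scaling its call in the mean of the lines was lost (-0.04) and SUDHL4 was called higher (0.22). DNAJC6 (auxilin, which uncoats clathrin vesicles), DNAJC27 (a small GTPase with a J domain) and DNAJC5B (a relative of DNAJC5) changed by -0.08 to 0.21 in the lines without a call. In the mean of the lines these 3 were called higher with median-of-ratios scaling, by 0.33, 0.28 and 0.20.

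Members of the nucleus, the ribosome and RNA processing included 2 of 6 higher and 3 lower, close to the shares of all genes (30.1% and 53.8%). DNAJC9, a chaperone of histones H3 and H4, averaged 42.3 ± 16.1 CPM in treated and 62.5 ± 18.8 CPM in DMSO SUDHL6 cells, and replicate 3, the shallow one, was the highest in both groups. It averaged 16.1 ± 0.58 and 27.7 ± 0.88 CPM in treated and DMSO SUDHL4 cells and 31.3 ± 0.40 and 41.7 ± 2.12 CPM in treated and DMSO Farage cells. Its changes of -0.57 in SUDHL6 and -0.74 in SUDHL4 were called and that of -0.40 in Farage was not (adjusted p = 0.0819), although its groups overlapped in SUDHL6 alone. The SUDHL6 and SUDHL4 calls were lost with median-of-ratios scaling, at -0.40 and -0.45, and the SUDHL6 call also without DMSO replicate 3 (-0.35), treated replicate 1 (-0.38) or treated replicate 2 (-0.49). DNAJC17, a splicing-related protein, was lower in all 3 lines by -0.66, -1.04 and -0.36, and DNAJC21, a factor of ribosome assembly, by -0.22, -0.42 and -0.35. No line's call of DNAJC21 held with median-of-ratios scaling (-0.05, -0.12 and -0.11), and neither did the Farage call of DNAJC17 (-0.15). The SUDHL6 call of DNAJC21, whose groups overlapped, was also lost without DMSO replicate 3 or treated replicate 1. DNAJC8, a spliceosome-associated protein, was not called on CPM as deposited and median-of-ratios scaling gave a call of 0.29 in the mean of the lines, with 131 to 145 CPM in treated and 111 to 143 CPM in DMSO SUDHL6 libraries. DNAJC24, which serves diphthamide synthesis, rose by 0.40 in Farage.

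DNAJC12, a cochaperone of the aromatic amino acid hydroxylases, was lower in all 3 lines. Treated SUDHL4 cells had 29.4, 29.7 and 27.1 CPM, against 75.4, 68.2 and 65.8 CPM in DMSO cells. Treated SUDHL6 cells had 8.05, 9.02 and 7.25 CPM, against 14.3, 12.3 and 10.4 CPM in DMSO cells, and treated Farage cells had 10.98, 11.5 and 13.2 CPM, against 18.2, 21.2 and 20.8 CPM in DMSO cells. No treated value reached a DMSO value of the same line, and the log2 changes were -1.25 in SUDHL4, -0.54 in SUDHL6 and -0.71 in Farage (SE 0.11 each).

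Summed over its coding members, class A stood at 1276 ± 151 CPM in treated and 593 ± 28.2 CPM in DMSO SUDHL6 cells, 868 ± 103 and 376 ± 35.4 CPM in treated and DMSO SUDHL4 cells, and 1497 ± 49.1 and 561 ± 16.4 CPM in treated and DMSO Farage cells. Class B stood at 1079 ± 134 and 332 ± 13.6 CPM in treated and DMSO SUDHL6 cells, 1426 ± 173 and 318 ± 81.6 CPM in treated and DMSO SUDHL4 cells, and 1757 ± 42.2 and 411 ± 9.59 CPM in treated and DMSO Farage cells. These sums rose to 2.15, 2.31 and 2.67 times the DMSO level for class A and 3.25, 4.48 and 4.28 times for class B. Class C, at 1.12, 0.808 and 0.982 times the DMSO level in SUDHL6, SUDHL4 and Farage, did not move one way on CPM as deposited. With median-of-ratios scaling these ratios were 1.27, 0.996 and 1.16. The sums are descriptions and carry no test.

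The genes that work with J-domain proteins were read from lists chosen, like the members, with earlier results of these data known. Of 8 tested HSP70 genes, 7 were higher and 0 lower on averaging the lines, with a median change of 1.62. The shares of all genes were 30.1% higher and 53.8% lower. By line, 6 were higher and 1 lower in SUDHL6 (26.8% and 41.3% of all genes). In SUDHL4 5 were higher and 0 lower (24.3% and 46.2%), with a median of 0.75, and in Farage 7 and 0 (25.4% and 46.5%). HSPA1B had 122, 105 and 111 CPM in treated and 11.8, 15.4 and 16.0 CPM in DMSO SUDHL6 cells, 305, 387 and 244 CPM in treated and 13.3, 11.6 and 48.1 CPM in DMSO SUDHL4 cells, and 319.7, 324 and 326 CPM in treated and 9.53, 9.22 and 9.19 CPM in DMSO Farage cells. HSPA1A, a near-identical copy that shares its reads, changed by 2.45 and HSPA1B by 3.92. The constitutive HSPA8 changed by 1.17 in Farage (4257 to 4649 CPM in treated and 1835 to 2123 CPM in DMSO libraries), and was not called in SUDHL6 (0.09) or SUDHL4 (0.00).

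Among 11 nucleotide exchange factors 6 were higher and 1 lower on CPM as deposited, where 30.1% of all genes were higher and 53.8% lower. With median-of-ratios scaling 9 were higher and 1 lower, and the share of higher calls over all genes rose as well. By line, on CPM as deposited, 5 were higher and 2 lower in SUDHL6, 3 and 3 in SUDHL4 (median -0.13) and 8 and 1 in Farage (median 0.59). The shares of all genes higher and lower in these lines were 26.8% and 41.3%, 24.3% and 46.2%, and 25.4% and 46.5%. BAG3, which links HSP70 to selective autophagy, rose by 3.76 and HSPH1, a large HSP110 exchange factor, by 1.86, whereas HSPBP1 fell by 1.03 on the log2 scale. Of 8 proteins that bridge HSP70 and HSP90, 6 were higher and 1 lower: CHORDC1 rose by 2.07 and STIP1 by 1.28, and the ubiquitin ligase STUB1 fell by 1.01. The 4 J-domain genes of the endoplasmic reticulum outside the family rule had 3 higher and 1 lower, against the same shares of all genes. DNAJC3 rose by 1.55, DNAJB9 by 1.37 and DNAJB11 by 0.12, and DNAJC10 fell by 0.63. Of 3 J-domain genes with other symbols HSCB was higher (0.21), and GAK (-0.22) and SEC63 (-0.23) were lower, and the calls of GAK and SEC63 were lost with median-of-ratios scaling, at 0.02 and 0.01. HSF1, the heat shock factor itself, changed by -0.41, a call lost with edgeR (-0.16), and HSF2 by 0.08, which was 0.31 and called with median-of-ratios scaling. HSF4 fell by 0.37.

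The response differed among lines for 17 of the 34 members by an F-test of the 3 responses (limma adjusted p below 0.05), 50% against 55.9% of all genes tested. Between SUDHL6 and Farage 9 members differed (background 36.8%), between SUDHL4 and Farage 10 (37.4%), and between SUDHL6 and SUDHL4 12 (35%). DNAJC25, a class C membrane protein, had the clearest difference. Treated Farage cells had 28.9, 28.9 and 27.8 CPM, against 7.77, 8.12 and 8.03 CPM in DMSO cells, a change of 1.72 ± 0.09. Treated SUDHL6 cells had 7.14, 7.28 and 7.13 CPM, against 6.55, 5.63 and 5.997 CPM in DMSO cells, and treated SUDHL4 cells had 9.52, 9.25 and 10.97 CPM, against 8.54, 8.80 and 8.24 CPM in DMSO cells, with changes of 0.22 and 0.19. The responses differed by -1.50 ± 0.12 for SUDHL6 minus Farage and by -1.52 ± 0.12 for SUDHL4 minus Farage (limma adjusted p = 1.84e-07 and 1.12e-07). The SUDHL6 change of DNAJC25 was called at an adjusted p of 0.0383 and not when the replicate numbers were fitted as pairs (0.0727), nor without any 1 of several libraries, such as SUDHL6 DMSO replicate 2 (0.17).

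DNAJC2, which sits at the ribosome exit with HSPA14 and also acts on chromatin, was the single member called in opposite directions, where 6.63% of all genes were. Treated SUDHL6 cells had 134, 123 and 153 CPM, against 91.8, 83.1 and 92.6 CPM in DMSO cells, and treated Farage cells had 63.9, 70.9 and 67.5 CPM, against 47.7, 47.9 and 48.5 CPM in DMSO cells. Treated SUDHL4 cells had 52.5, 53.7 and 50.2 CPM, against 72.9, 63.0 and 74.1 CPM in DMSO cells. The changes were 0.61, 0.48 and -0.41 (SE 0.08 each), and the last lost its call with median-of-ratios scaling (-0.12). The difference between SUDHL6 and SUDHL4 was 1.02 ± 0.12 and that between SUDHL4 and Farage -0.89 ± 0.12 (limma adjusted p = 9.73e-06 and 2.17e-05).

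DNAJB2 responded more in SUDHL4 than in either other line, by 0.98 ± 0.29 over Farage, and SUDHL6 minus SUDHL4 was -1.68 ± 0.29 (limma adjusted p = 0.0145 and 0.000374). DNAJB1 responded more in Farage, with -0.82 ± 0.24 for SUDHL6 minus Farage and -0.71 ± 0.24 for SUDHL4 minus Farage (adjusted p = 0.014 and 0.029); the second was lost without SUDHL4 DMSO replicate 3, at -0.45, without any 1 of 5 other libraries, and with median-of-ratios scaling, at -0.66. DNAJC16, a membrane protein of the endoplasmic reticulum, rose in SUDHL6, with 44.4, 55.1 and 41.8 CPM in treated cells, against 35.2, 30.5 and 24.1 CPM in DMSO cells. It averaged 24.5 ± 5.28 and 26.0 ± 2.21 CPM in treated and DMSO SUDHL4 cells and 24.5 ± 1.152 and 28.4 ± 2.94 CPM in treated and DMSO Farage cells, and SUDHL6 minus Farage was 0.84 ± 0.21 (adjusted p = 0.00575). DNAJB4 had no called difference between lines on CPM as deposited: SUDHL4 minus Farage was -1.35 ± 0.52 (adjusted p = 0.0525), and it was called with edgeR (-1.70) and DESeq2 (-1.73). These values hold SUDHL4 DMSO replicate 3, which had 4.10 times the mean DNAJB4 level of DMSO replicates 1 and 2.

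**Figure D4:**
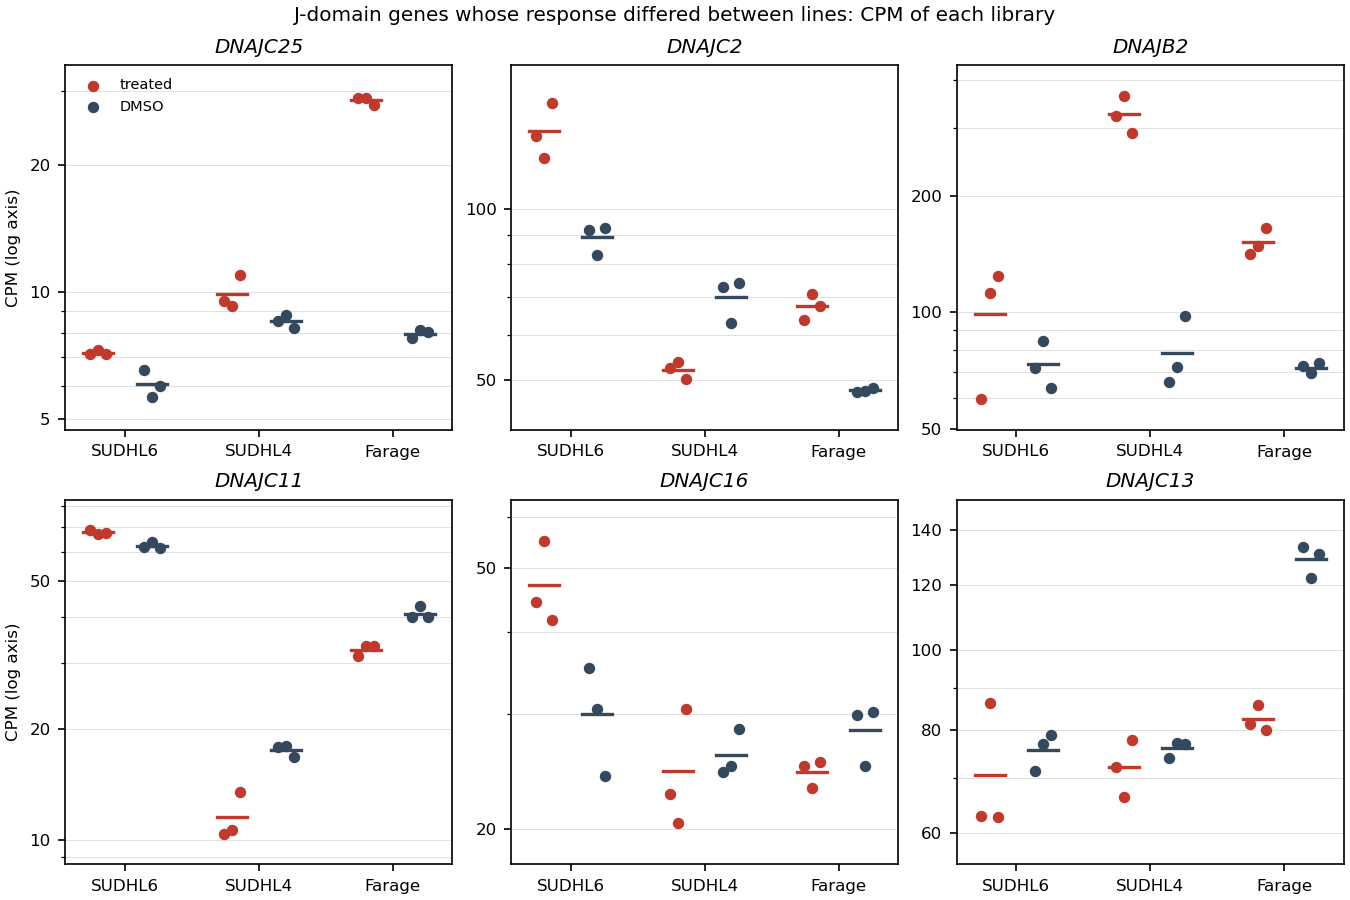
CPM on a log axis of DNAJC25, DNAJC2, DNAJB2, DNAJC11, DNAJC16 and DNAJC13 in each library, with treated libraries (red) left of DMSO libraries (dark grey-blue) in each line; points are libraries and bars are means of n = 3. DNAJC25 is raised in treated Farage cells (28.5 ± 0.64 CPM) and close to DMSO in the other lines, DNAJC2 is raised in treated SUDHL6 and Farage cells and lower in treated SUDHL4 cells, and DNAJC13 is lower in treated Farage cells.

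In DMSO cells the 3 lines differed in many members: 21 of 34 between Farage and SUDHL6 (71.3% of all genes), 23 between Farage and SUDHL4 (67.1%) and 25 between SUDHL6 and SUDHL4 (68.6%). The largest difference was in DNAJC5B, a relative of DNAJC5 described as testis-enriched, with 189, 202 and 187 CPM in DMSO Farage cells, 1.96, 1.59 and 2.14 CPM in DMSO SUDHL6 cells and 3.47, 3.55 and 3.55 CPM in DMSO SUDHL4 cells. This is 6.07 ± 0.14 on the log2 scale for Farage minus SUDHL6 and 5.42 ± 0.14 for Farage minus SUDHL4 (limma adjusted p = 3.67e-16 and 1.6e-15). Per kilobase of exon it ranked 1 of the 34 members in DMSO Farage cells, and 32 and 27 in DMSO SUDHL6 and SUDHL4 cells. Treated Farage cells had 185, 187 and 174 CPM.

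DNAJC6, also a vesicle protein, was likewise highest in Farage, with 24.2 ± 0.96, 4.95 ± 0.62 and 0.644 ± 0.33 CPM in DMSO Farage, SUDHL6 and SUDHL4 cells. DNAJC15 was highest in SUDHL4, with 44.5 ± 4.88, 12.7 ± 3.75 and 94.7 ± 6.13 CPM in the same groups, and so was DNAJC12, with 20.1 ± 1.64, 12.3 ± 1.95 and 69.8 ± 5.003 CPM. DNAJC11 had 40.9 ± 1.63, 62.4 ± 1.21 and 17.5 ± 0.69 CPM, and DNAJC28 had 0.532 ± 0.04, 3.36 ± 0.73 and 0.636 ± 0.14 CPM. For DNAJC15 the contrasts were 1.76 for Farage minus SUDHL6, -1.07 for Farage minus SUDHL4 and -2.84 for SUDHL6 minus SUDHL4 (SE 0.18 each), so its 3 levels were all apart by the test. DNAJC28 did not differ by the test between Farage and SUDHL4 (-0.09 ± 0.12). DNAJB4 in DMSO cells was lower in Farage than in SUDHL4 by -1.15 ± 0.37, a contrast that holds the high SUDHL4 DMSO replicate 3.

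**Figure D5:**
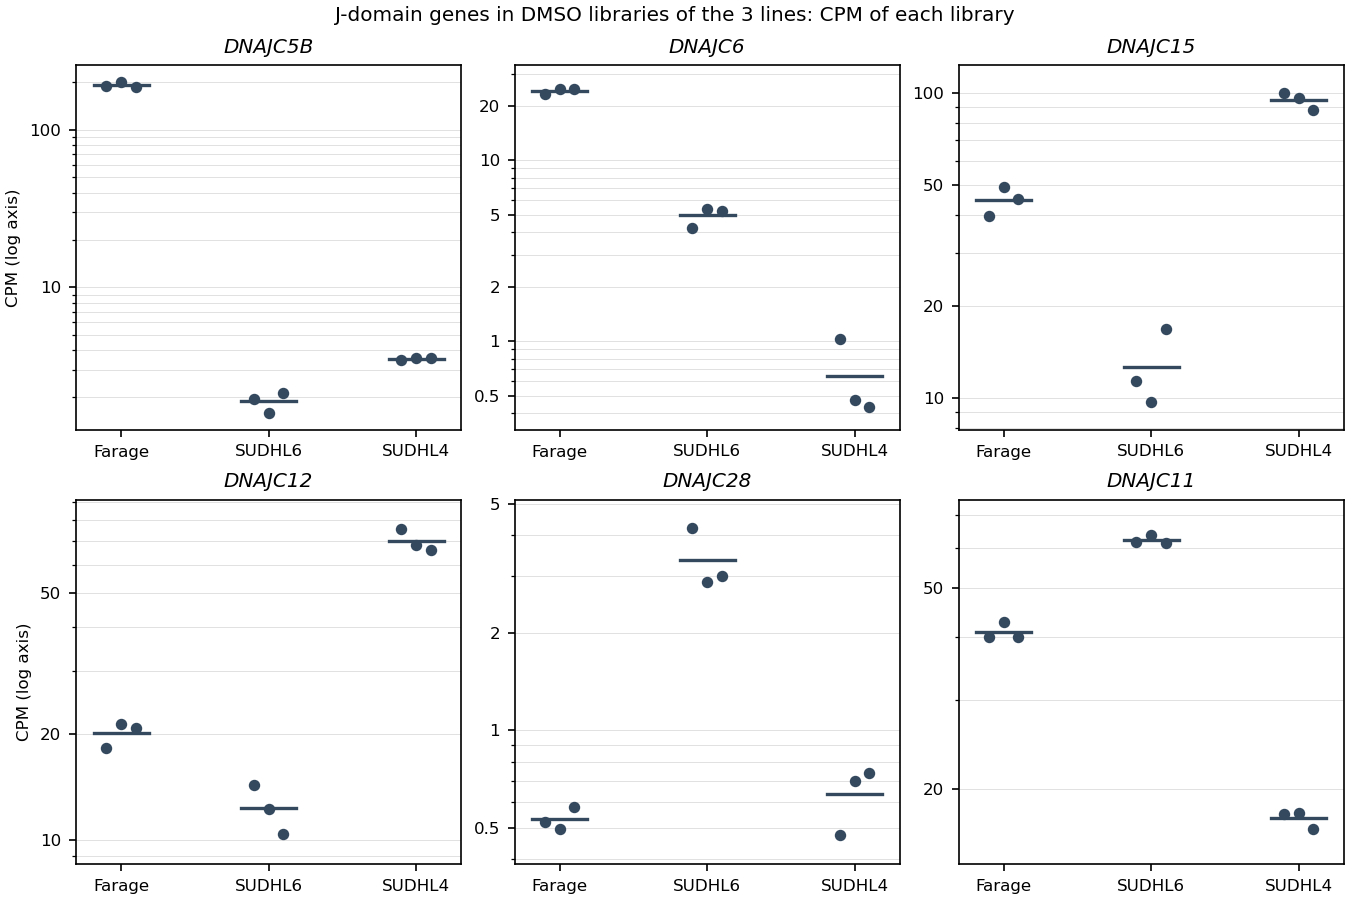
CPM on a log axis of DNAJC5B, DNAJC6, DNAJC15, DNAJC12, DNAJC28 and DNAJC11 in the DMSO libraries of Farage, SUDHL6 and SUDHL4; points are libraries and bars are means of n = 3. DNAJC5B and DNAJC6 are highest in Farage, DNAJC15 and DNAJC12 in SUDHL4, and DNAJC28 and DNAJC11 in SUDHL6.

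Exons of 9 of the 34 tested members overlap exons of another listed gene in GENCODE v29, mostly on the opposite strand, among them DNAJC2 with PMPCB, DNAJC17 with ZFYVE19 and DNAJC7 with CNP and NKIRAS2. The strand setting of the counting is not given in the sources used here, so reads of these pairs may not be told apart. On the same strand, DNAJC9 overlaps MRPS16, and DNAJC25 overlaps the readthrough DNAJC25-GNG10, which was listed at 0 in every library. A strand setting does not separate reads of same-strand pairs.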

How the data were processed

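RNA-seq of 18 libraries was used. The authors deposited CPM (read counts scaled to library size) per gene symbol for each library. STAR and the build hg19 are named in the submitters' processing notes, and a TruSeq RNA kit in the labels' protocols. Neither versions nor the annotation release or strand setting is given in the sources used here. Dividing by what 1 read is worth gave whole reads, within 0.01, for 100% of values, so reads were recovered for edgeR and DESeq2 as alternatives.

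CPM were tested as log2(CPM + 1) with limma 3.58.1 (R 4.3.3), with an intensity trend, 1 mean for each of the 6 groups and Benjamini-Hochberg adjustment over 12769 genes, two-sided. Alternatives were a pseudocount of 0.25, no filter, a mean CPM of at least 5, median-of-ratios scaling, the replicate number as a block, the compared lines alone, edgeR 4.0.16, DESeq2 1.42.0 and leaving out each library. Scripts were tested on simulated data.

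The members and lists were chosen with earlier results of these data known. The members with the largest called changes and differences and a mean of at least 2 CPM were named by rule, and DNAJA1 to DNAJA4, DNAJB1, DNAJB4 and DNAJB6 always; other members were described by role, after their values were seen. DNAJA4 was not tested. A marker and a listed gene are not reported here. In SUDHL6, libraries with the same number deviated together across genes (r = 0.425, 0.488 and 0.632), so they pair there by the data, not the labels. In Farage (r = 0.168, -0.128 and -0.189) and SUDHL4 (-0.0535, 0.0344 and -0.0728) they do not. The main fit is unpaired in every line, and the block fit has a term for each line and number, so it pairs all 3 lines.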

Additional observations from a re-analysis of the deposited data

Results flagged for a closer look

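Each response that differed between a pair of lines by limma's test of the difference (adjusted p below 0.05) is listed as the log2 response of the first line minus that of the second. For SUDHL6 minus Farage the values were -0.65 for DNAJA1, 0.29 for DNAJA2, 0.33 for DNAJA3, -0.82 for DNAJB1, 0.43 for DNAJC11, 0.53 for DNAJC13, 0.84 for DNAJC16, 0.65 for DNAJC19 and -1.50 for DNAJC25. For SUDHL4 minus Farage they were -0.71 for DNAJB1, 0.98 for DNAJB2, -0.54 for DNAJC12, 0.56 for DNAJC13, -0.68 for DNAJC17, -0.89 for DNAJC2, -0.56 for DNAJC24, -1.52 for DNAJC25, 0.57 for DNAJC4 and -0.35 for DNAJC5. For SUDHL6 minus SUDHL4 they were 0.36 for DNAJA3, -1.68 for DNAJB2, -0.62 for DNAJC1, 0.69 for DNAJC11, 0.71 for DNAJC12, 0.74 for DNAJC16, 0.39 for DNAJC17, 1.02 for DNAJC2, 0.37 for DNAJC24, 0.53 for DNAJC28, -0.67 for DNAJC4 and 0.49 for DNAJC5.

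Several of these sat near the threshold. With the replicate number as a block, the SUDHL6 minus SUDHL4 differences of DNAJC17 and DNAJC24 were lost (limma adjusted p = 0.061 each). The DNAJC28 difference was lost with a pseudocount of 0.25, the DNAJA2 and DNAJC19 differences between SUDHL6 and Farage with median-of-ratios scaling, and each of these 5 also when any 1 of several libraries was left out. The DNAJC5 difference between SUDHL4 and Farage was lost without any 1 of 5 libraries, Farage DMSO or treated replicate 3, SUDHL4 DMSO replicate 2, or SUDHL4 treated replicate 1 or 2, and the DNAJA3 difference between SUDHL6 and Farage without Farage DMSO replicate 2 or treated replicate 1.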

How the results depend on the processing

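The cause of the moves given here was not tested, and edgeR and DESeq2 change the model and the scaling together. Members higher in the mean of the lines were 20 with median-of-ratios scaling, against 13 on CPM as deposited. Members lower in Farage were 9 with median-of-ratios scaling, with edgeR and with DESeq2, against 14. Members higher in SUDHL4 were 14 with edgeR, 15 with DESeq2 and 12 with median-of-ratios scaling, against 9. In a fit of SUDHL4 and Farage alone, 16 responses differed between them, against 10. Calls over all genes moved with the scaling too. In Farage 4285 genes were higher and 4752 lower with median-of-ratios scaling, against 3246 and 5939 on CPM as deposited. Shifts in these member counts are not read as particular to the family. With median-of-ratios scaling the summed CPM of class A was 2.44, 2.85 and 3.17 times the DMSO level in SUDHL6, SUDHL4 and Farage, that of class B 3.70, 5.51 and 5.07 times, and that of class C 1.27, 0.996 and 1.16 times. The change of DNAJA2, Farage, turned to 0.22 with median-of-ratios scaling and edgeR, 0.24 with DESeq2, 0.012 without DMSO replicate 2 and 0.028 without treated replicate 1 (-0.0804 to 0.0277 over single libraries left out). DNAJA3 turned to 0.12, 0.13 and 0.13 in the mean of the lines with median-of-ratios scaling, edgeR and DESeq2, to 0.022, 0.021 and 0.035 in Farage and to 0.043, 0.065 and 0.052 in SUDHL4. All 13 members higher in the mean of the lines were called higher by these 3 methods, and 11 of the 15 lower were called lower (not DNAJA3, DNAJC11, DNAJC13 or DNAJC21). Leaving out single libraries gave 13 to 14 members up and 15 down in the mean of the lines, 11 to 14 and 10 to 12 in SUDHL6, 8 to 9 and 14 to 15 in SUDHL4, and 12 and 13 to 15 in Farage. The pseudocount, the filters and the block moved no count of members by over 1.5 times. The shallow SUDHL6 replicate 3 libraries limit low members there.

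With the replicate number as a block in all 3 lines, though same-numbered libraries deviated together in SUDHL6 only, 13 members were up and 15 down in the mean of the lines, 12 and 12 in SUDHL6, 9 and 15 in SUDHL4 and 12 and 15 in Farage, and 17 responses differed among the lines. Besides the calls of DNAJC25, DNAJC17 and DNAJC24 given above, the block changed the call of DNAJC9 in Farage (-0.40, called) and its SUDHL4 minus Farage difference (-0.34, called).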

Other observations

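Members outside the filter were also fitted with no filter on low values. DNAJB13, a class B protein known from sperm flagella, had 1.205, 0.622 and 1.33 CPM in treated SUDHL6 cells, against 0.116, 0.302 and 0.535 CPM in DMSO cells. In SUDHL4 it had 0.959, 0.819 and 0.926 CPM in treated cells, against 0.292, 0.158 and 0.167 CPM in DMSO cells. The treated values lay above all DMSO values in both lines, and the log2(CPM + 1) changes were 0.63 and 0.66 (limma adjusted p = 0.00081 and 0.000525). In Farage the change was 0.12 (adjusted p = 0.516). The pseudogene DNAJA1P5, a copy of DNAJA1 that may share its reads, was called higher in Farage (0.38, adjusted p = 0.000915), as was DNAJA4 (0.23, adjusted p = 0.0173), each at under 1 CPM. DNAJC22 was called lower in the mean of the lines (-0.15, limma adjusted p = 0.000581), at no more than 0.284 CPM in any library. This rests on 14, 5 and 13 reads in DMSO cells of SUDHL6, SUDHL4 and Farage, against 4, 0 and 2 in treated cells. Without the filter 63.8% of all genes were called in the mean of the lines.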
